A study of Arabidopsis thaliana with 6 samples.

Results

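The comparison described here is that of day 5 with day 4 of a soil drought in unopened flower buds of Arabidopsis thaliana, across all genes of the array. Its members were the 2 day 5 arrays and the 2 day 4 arrays, 4 of the 6 arrays of the series, and 22746 of 22810 probe sets, since 64 controls were not tested. All plants were of the dreb1a line CS872453 in the Col-0 background, and all of them were droughted, so the mutation and the treatment were shared by every group. Drying began, by withholding water, once plants had grown for 24 days and the main stem reached 1 cm. The soil stood near 35% of water-holding capacity some 80 hours later, a time the labels count as day 3, and watering kept it there afterwards. Plants were 28 days old on day 3, 29 on day 4 and 30 on day 5, with 2 samples a day. The second day at held moisture is therefore also a further day of age, and the length of drought and the age of the plants cannot be told apart. Buds of the wild type or of watered plants were not analysed here. DREB1A itself has no named probe set here, so the genotype rests on the labels. Nothing in the labels says that the samples of a day came from separate plants, so p-values speak only of the spread among these samples, which can be technical.

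DREB1A, also known as CBF3, is a transcription factor that binds the dehydration-responsive element in promoters and switches on cold- and drought-induced genes. Among its known targets are dehydrins and other proteins of the late embryogenesis abundant (LEA) class, made when cells lose water. Young flower buds are growing organs, in which cells divide, loosen their walls and enlarge, while anthers and ovules form within them. When carbon runs short, plant cells are known to slow growth and to recycle their contents through autophagy and amino acid breakdown.

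Each value is a log2 RMA value of 1 probe set on 1 array, so a difference of 1 is a 2-fold difference. "Called" means an adjusted p under 0.05 in limma, and "rose" and "fell" are used for called changes only. Arrays of the same day differed by a median of 0.10 to 0.13 over the probe sets, and arrays of days 4 and 5 by 0.19 to 0.21. Among markers of the tissue, the anther genes AT5G07230 and AMS lay at 11.8 and 9.45 on day 4, so the defining genes of young anthers were present. RCA, a photosynthesis gene that is also high in leaves, lay at 12.8, and the root gene PYK10 at 4.55 lay near the low end of the array.

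From day 4 to day 5, 2395 probe sets rose and 3048 fell, which is 10.5% and 13.4% of those tested and 23.9% together. Most changes were small. Of the probe sets that rose, 1105 changed by under 0.5 and 1014 by between 0.5 and 1, and of those that fell 1774 and 1188 did. At least 2-fold changes were more often rises, 276 (1.21%) against 86 falls (0.378%), and 45 probe sets rose at least 4-fold while 4 fell by as much. Leaving out 1 array at a time brought the total number of calls from 5443 to between 2506, without day 5 replicate 2, and 4822, and without day 5 replicate 1 it was 3398. Of the rises 1028 (42.9%) and of the falls 981 (32.2%) were called whichever 1 array was left out, against 271 of 276 and 83 of 86 of the changes of at least 2-fold. The 2 arrays of day 5 lay wholly above those of day 4 for 25.1% of probe sets and wholly below for 37.1%. Probe sets that fell had a median level of 8.39 on day 4, and those that rose 7.77, against 7.43 for all.

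**Figure D1:**
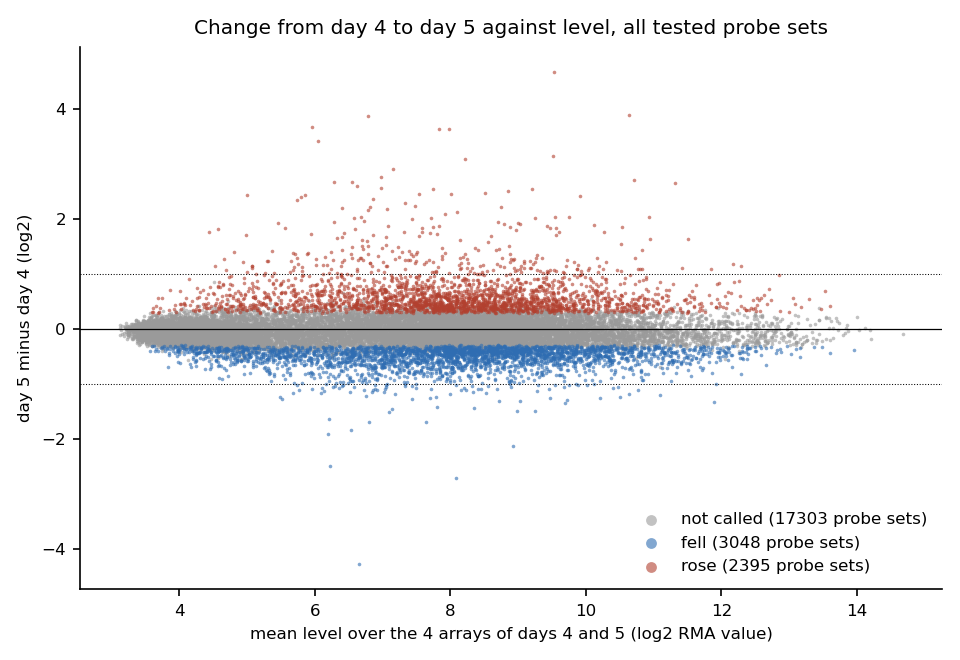
Change from day 4 to day 5 (log2) against the mean level over the 4 arrays of these days, 1 point per tested probe set, with dotted lines at a 2-fold change. The cloud is centred near 0, rises reach 4.69, and falls of over 2 are few, down to -4.28.

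RMA gives every array nearly the same distribution of values, so each change is one relative to the array as a whole. The control probe sets for poly-A RNA, which is added to samples in the standard protocol of the array maker, read 7.08 and 6.98 on day 4 and 7.63 and 7.53 on day 5. The control for 25S ribosomal RNA read 12.46 and 12.50 on day 4 and 13.30 and 13.52 on day 5. With the arrays set level on the poly-A controls, the median over all tested probe sets went from -0.05 to -0.60, and then 386 probe sets rose (1.7%) and 19184 fell (84.3%). Whether equal amounts of control RNA were added to all samples is not given in the labels, and its part in the results was not tested. Of the rises of at least 2-fold, 274 of 276 were still called rises on this scale, and all 3048 falls were still falls. Since the scale takes 1 value from every change, no fall and no rise of that size could turn. These counts are therefore no check of those changes. Changes below are relative to the array as a whole. The poly-A scale takes the same 0.55 from every change, so each positive change below 0.55 that is printed here, called or not, is below 0 on that scale. A sign of RNA quality differed as well. The 3' minus 5' difference of the GAPDH control read 0.94 and 1.06 on day 4 and 1.25 and 1.26 on day 5, that of the actin control 3.43 and 3.27, then 3.46 and 3.47, and that of the ubiquitin control 1.07 and 1.11, then 1.15 and 1.15. All 3 were higher on both day 5 arrays than on both day 4 arrays, but on day 3 the actin control reached 3.65, the GAPDH control 1.19 and the ubiquitin control 1.15. The part of this in the results was not tested.

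The largest named rise was that of HIS1-3, which encodes a drought-inducible variant of the linker histone H1. It read 6.74 and 7.62 on day 4 and 11.62 and 12.11 on day 5, a log2 change of 4.69 (SE 0.23, limma adjusted p = 2.1e-06, n = 2 per day), or 25.7-fold. It had read 5.47 and 5.43 on day 3, so both day 5 arrays stood far above all others. LTI30, a dehydrin and a known DREB1 target, read 5.80 and 6.53 on day 4 and 9.64 and 9.97 on day 5, and rose 12.5-fold (log2 change 3.64, SE 0.20, adjusted p = 2.8e-06). The changes of the second step were larger than those of the first, by 2.95 for HIS1-3 (SE 0.41, adjusted p = 0.00309) and by 2.55 for LTI30 (SE 0.34, adjusted p = 0.00282). DEWAX (AT5G61590), a repressor of wax synthesis, read 5.36 and 5.82 on day 4 and 8.25 and 8.47 on day 5, a rise of 2.77 (SE 0.16). SIS, named by RefSeq as salt-induced and serine-rich, rose by 2.55 (SE 0.14) from 7.78 and 8.09 to 10.31 and 10.67. ARL, an ARGOS-like gene that promotes organ growth by cell expansion, rose by 2.30 (SE 0.14) from 6.21 and 6.14 to 8.24 and 8.71.

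The 20 largest named rises, chosen among calls without overlap between the 2 days, went from 2.30 to 4.69. Besides the genes above, they hold the LEA gene LEA18, the plastid genes ndhG and ndhF, and 12 genes that neither the array annotation nor RefSeq names beyond a locus. Of these 12, AT3G15670 rose by 3.89, AT3G17520 by 3.67, AT2G21820 by 3.64 and AT1G22890 by 3.42. AT1G22890 read 4.47 and 4.20 on day 4 and 7.56 and 7.95 on day 5, while AT3G17520 read 6.97 on one day 5 array and 8.61 on the other. For all 20, the change remained a called rise when the arrays were set level on the poly-A controls, and whichever 1 array was left out. On the poly-A scale, which takes 0.55 from every change, rises of this size could not turn. A further 129 probe sets that rose at least 2-fold are not named with exactly 1 gene, the largest of them by 3.89, against 147 that are.

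**Figure D2:**
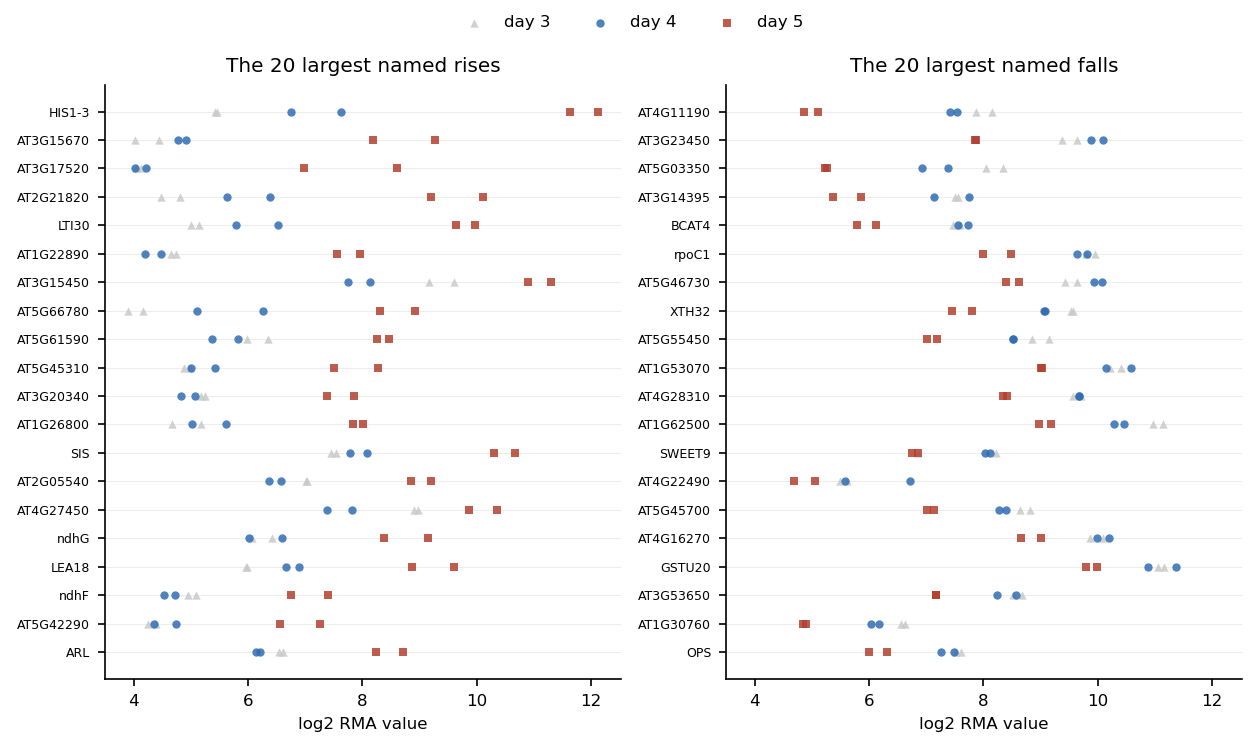
Values on all 6 arrays (log2 RMA value) for the 20 largest named rises and falls from day 4 to day 5, 1 symbol per array. The day 5 squares lie apart from the day 4 circles in every row, since genes with overlap were not eligible. For rises such as HIS1-3 and LTI30 the day 3 triangles lie on the far side of day 4.

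Among LEA and dehydrin genes, 5 of 11 measured members rose and none fell, where 9.58% of all 13350 named genes rose and 12.8% fell. The list was made by symbol, so genes of the class without a matching symbol or synonym are not counted in it. The median change of the list was 0.32, against -0.05 for all probe sets, and on the poly-A scale its median was -0.23, with 3 called rises and 5 called falls. LEA18 read 6.67 and 6.89 on day 4 and 8.87 and 9.61 on day 5, a rise of 2.46 (SE 0.19, adjusted p = 2.3e-05). LEA4-5 rose by 1.87 (SE 0.24), from 8.18 and 8.79 to 9.99 and 10.73. The dehydrin gene LEA (AT2G21490) rose by 0.69 (SE 0.10), from 8.95 and 8.82 to 9.62 and 9.53, with no call on the poly-A scale (0.14). The 3 genes of the list with changes of over 1.5 had all read under 9 on day 4. COR15A, a chloroplast-protecting LEA protein that was already high at 12.37 and 12.19, moved less and rose by 0.37 (adjusted p = 0.0317) to 12.60 and 12.69. Its call was lost when day 4 replicate 2 (adjusted p = 0.15), day 5 replicate 1 (0.0773) or day 5 replicate 2 (0.178) was left out, and its change was -0.18 on the poly-A scale. COR47 at 0.32 (adjusted p = 0.0955) and COR15B at -0.24 (adjusted p = 0.14) were not called, so of the 5 measured DREB1 targets 3 rose, LTI30, COR15A and the zinc-finger gene STZ (0.80, SE 0.11). PAP85, a gene of a vicilin-like seed protein, rose by 1.27 (SE 0.20), from 4.04 and 4.02 to 4.89 and 5.71, while the oil-body gene OLEO3 at -0.26 was not called.

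Hormone genes moved in both directions. All 3 genes for the gibberellin receptor rose, GID1B by 1.26 (SE 0.13, adjusted p = 8.7e-05), GID1A by 0.81 (SE 0.10) and GID1C by 0.73 (SE 0.13). GID1B read 6.09 and 5.93 on day 4 and 7.26 and 7.29 on day 5, and it had read 6.41 and 6.07 on day 3. For GID1A the values were 7.84 and 7.82, then 8.57 and 8.72, again with no overlap. The F-box proteins that pass the receptor signal on by marking DELLA repressors for breakdown went the other way. SLY2 fell by 1.07 (SE 0.15), from 6.996 and 6.81 to 6.05 and 5.60, and SLY1 fell by 0.44 (adjusted p = 0.00875), a call that ended without day 5 replicate 1 (adjusted p = 0.0652). SPY, an inhibitor of the pathway, changed by 0.10 and was not called. On the poly-A scale only GID1B of the receptors was a called rise, and the list median turned from 0.42 to -0.13.

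Of 16 measured auxin genes, 2 rose (12.5%) and 1 fell (6.25%), close to or below the 9.58% and 12.8% of all named genes, with a list median of -0.12. WES1, known as GH3.5, joins auxin to amino acids and so lowers its active pool. It read 7.90 and 8.17 on day 4 and 9.80 and 10.11 on day 5, a rise of 1.93 (SE 0.14, adjusted p = 1.7e-05). GH3.17, of the same enzyme family, rose by 0.93 (SE 0.14), and IAGLU, which joins auxin to glucose and was counted with the UDP-glycosyltransferases, rose by 1.21 (SE 0.13), from 6.23 and 6.55 to 7.54 and 7.68. The auxin synthesis genes YUC2, YUC4, YUC6 and YUC11 were not called, with changes of -0.18 to 0.04. IAA30 fell by 0.38, a call lost when day 4 replicate 1 (adjusted p = 0.115), day 5 replicate 1 (0.119) or day 5 replicate 2 (0.114) was left out. In the jasmonate list, OPCL1, an enzyme of jasmonate synthesis, rose by 0.71 (SE 0.13) and the transcription factor MYC3 by 0.61 (SE 0.11), while JMT, which makes the methyl ester, fell by 0.72 (SE 0.14). XERICO, a RING-type protein whose overexpression raises abscisic acid in Arabidopsis, read 9.38 and 9.65 on day 4 and 10.68 and 10.93 on day 5, a rise of 1.29 (SE 0.13, adjusted p = 1.1e-04). Of 5 measured glucosyltransferase genes tied to abscisic acid, UGT71C5 was the 1 called, and it fell by 0.41 (adjusted p = 0.0386). That call was lost when day 4 replicate 2 (adjusted p = 0.185), day 5 replicate 1 (0.0608) or day 5 replicate 2 (0.227) was left out.

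Of 11 measured autophagy genes 10 rose (90.9%) and none fell, where 9.58% of all named genes rose and 12.8% fell. Most of the list are ATG8 genes, whose proteins coat the growing autophagosome. Its median of 0.53 turned to -0.02 on the poly-A scale. ATG8E read 6.61 and 6.55 on day 4 and 7.81 and 7.97 on day 5, a rise of 1.31 (SE 0.11, adjusted p = 3.4e-05). ATG8F rose by 0.92 (SE 0.10), from 10.37 and 10.48 to 11.33 and 11.35, ATG8B by 0.67 (SE 0.11), APG8H by 0.65 and ATG8H by 0.60 (SE 0.11). These 5 were called whichever array was left out, and the number of called members was 5 without day 5 replicate 2 and up to 8 without another array. The other 5 rose by 0.34 to 0.53, and ATG8G at 0.33 was not called (adjusted p = 0.0856). On the poly-A scale ATG8E at 0.76 and ATG8F at 0.37 were the called rises of the list, with no called fall. For ATG8E the first step had been -0.70, and the second step exceeded the first by 2.01 (adjusted p = 4.3e-04).

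Genes of amino acid breakdown and nitrogen transport rose more often than they fell, 10 (43.5%) against 1 (4.35%) of 23 measured. Their median was 0.21 (-0.34 on the poly-A scale, with 1 called rise and 12 called falls). AT4G33150, the lysine-degrading enzyme LKR/SDH, read 10.14 and 10.02 on day 4 and 11.34 and 11.40 on day 5, a rise of 1.29 (SE 0.10, adjusted p = 2.3e-05). Members of the NRT1/PTR transporter family rose as well, AT1G68570 (NPF3.1) by 0.81 (SE 0.10), the glucosinolate transporter GTR2 by 0.69 (SE 0.11) and AT3G21670 (NPF6.4) by 0.65 (SE 0.12). AT1G68570 had also risen in the first step, by 0.86. Without day 5 replicate 2 the list had 5 called rises. Of 21 measured sugar transporter genes, 5 rose (23.8%) and 2 fell (9.52%), where 9.58% of all named genes rose and 12.8% fell. The vacuolar transporter gene TMT2 rose by 0.71 (SE 0.10), from 8.81 and 8.84 to 9.51 and 9.56, and SWEET4 by 0.49 (SE 0.10, -0.06 on the poly-A scale), while SWEET17, a vacuolar fructose carrier, fell by 0.62 (SE 0.12). The other 3 rises of that list ended without day 4 replicate 2, where the list had 2 called rises. Genes marked by sugar starvation gave 4 rises of 0.32 to 0.44 and 1 fall among 8 measured, with no called rise left without day 5 replicate 2 and none on the poly-A scale.

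Among the falls, the largest named was that of AT4G11190, a gene known by locus only. It read 7.54 and 7.42 on day 4 and 5.11 and 4.86 on day 5, and fell by 2.49 (SE 0.13, limma adjusted p = 2.1e-06), and had read 7.88 and 8.16 on day 3. BCAT4, which starts the chain elongation of methionine for glucosinolates, fell by 1.69 (SE 0.13, adjusted p = 1.9e-05), from 7.73 and 7.56 to 5.79 and 6.12. SWEET9, the sucrose exporter of nectaries, read 8.11 and 8.03 on day 4 and 6.75 and 6.85 on day 5, and fell by 1.27 (SE 0.31, adjusted p = 0.0131). Its day 3 arrays were split, at 8.23 and 6.86, and its call was lost when any of the 4 was left out, that is day 4 replicate 1 (adjusted p = 0.0675), day 4 replicate 2 (0.0559), day 5 replicate 1 (0.0559) or day 5 replicate 2 (0.0508). OPS (OCTOPUS), a regulator of phloem formation, fell by 1.22 (SE 0.13), from 7.49 and 7.25 to 6.32 and 5.99. The 20 largest named falls went from -1.22 to -2.49, and 14 of them are known here by locus only. Of these, AT4G22490 lost its call without day 5 replicate 2 (adjusted p = 0.0571), and its day 4 arrays read 5.58 and 6.71. The largest fall of the whole table, at -4.28, belongs to a probe set that is not named with 1 gene here.

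Cell division genes fell. Of 11 measured genes of the cell cycle and replication, 9 fell (81.8%, against 12.8% of all named genes) and none rose. Their median was -0.53. On the poly-A scale all 11 fell, but so did 84.3% of all tested probe sets, so this adds nothing to the result. BUBR1, of the spindle checkpoint, read 7.23 and 7.12 on day 4 and 6.24 and 6.20 on day 5, and fell by 0.96 (SE 0.10, adjusted p = 1.5e-04). HTR12, the centromeric histone CENH3, fell by 0.74 (SE 0.11), from 7.79 and 7.54 to 6.88 and 6.97, and PRL, the helicase subunit MCM7 that licenses replication origins, fell by 0.72 (SE 0.10). BUB3.1, a further checkpoint gene, fell by 0.55 and the mitotic kinase gene AUR1 by 0.49. These 5 were called whichever array was left out, and without day 5 replicate 2 the list had 6 called falls. The first step had a median of -0.20 for the same genes, and the second step differed from the first for 1 of the 11.

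Of 7 measured histone genes 4 fell (57.1%) and 1, HIS1-3, rose (14.3%). The H2B genes HTB1, HTB2 and HTB11 fell, with changes of -0.87 (SE 0.10), -0.62 (SE 0.10) and -0.59. HTB1 read 11.02 and 10.94 on day 4 and 10.15 and 10.07 on day 5. Abundant core histone transcripts and the linker histone variant thus went opposite ways. In the list of kinesins, tubulins and microtubule-associated proteins 5 of 42 members fell and 1 rose, with a median of -0.11. These shares, 11.9% and 2.38%, are below those of all named genes (12.8% and 9.58%), so the falls of this list are no more frequent than elsewhere on the array. KINESIN-12B, a motor of the cell-division phragmoplast, fell by 0.90 (SE 0.11), from 7.45 and 7.67 to 6.61 and 6.73. The tubulin gene TUB7 fell by 0.58 (SE 0.10) and TRM28 by 0.64 (SE 0.11), while TRM26 rose by 0.64 (SE 0.12, and 0.09 with no call on the poly-A scale). Without day 5 replicate 2 that list had 3 called falls. In bulk tissue, fewer dividing cells and less RNA per cell cannot be told apart.

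Wall-loosening genes fell more often than they rose, 9 (31%) against 2 (6.9%) of 29 measured expansin and XTH genes, with a median of -0.16. Over all named genes 12.8% fell and 9.58% rose. XTH enzymes cut and rejoin the xyloglucan of the wall, and expansins loosen it during growth. XTH32 read 9.06 and 9.07 on day 4 and 7.45 and 7.81 on day 5, and fell by 1.43 (SE 0.12, adjusted p = 3.5e-05), and it had also fallen by 0.48 in the first step. EXPA15 read 11.21 and 11.26 on day 4 and 10.16 and 9.93 on day 5, and fell by 1.19 (SE 0.11) after a first step of 0.23. EXPB5 fell by 0.88 (SE 0.13), XTH16 by 0.78 (SE 0.13), EXPA20 by 0.70 (SE 0.12), EXPA18 by 0.63 (SE 0.10) and EXPB1 by 0.50. All 7 of these falls were called whichever array was left out. The 2 rises, EXLB1 at 0.63 and EXPA8 at 0.54, were not. EXLB1 lost its call without day 4 replicate 1 (adjusted p = 0.0721) or day 5 replicate 2 (0.0555), and EXPA8 without day 4 replicate 2 (0.0694) or day 5 replicate 1 (0.07). On the poly-A scale EXPA8 was at -0.01. Of 32 genes that build or trim wall polysaccharides 3 fell (9.38%, below the 12.8% of all named genes) and none rose. Among them the cellulase-family gene GH9B11 fell by 0.73 (SE 0.13), from 6.63 and 7.05 to 6.05 and 6.18.

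**Figure D3:**
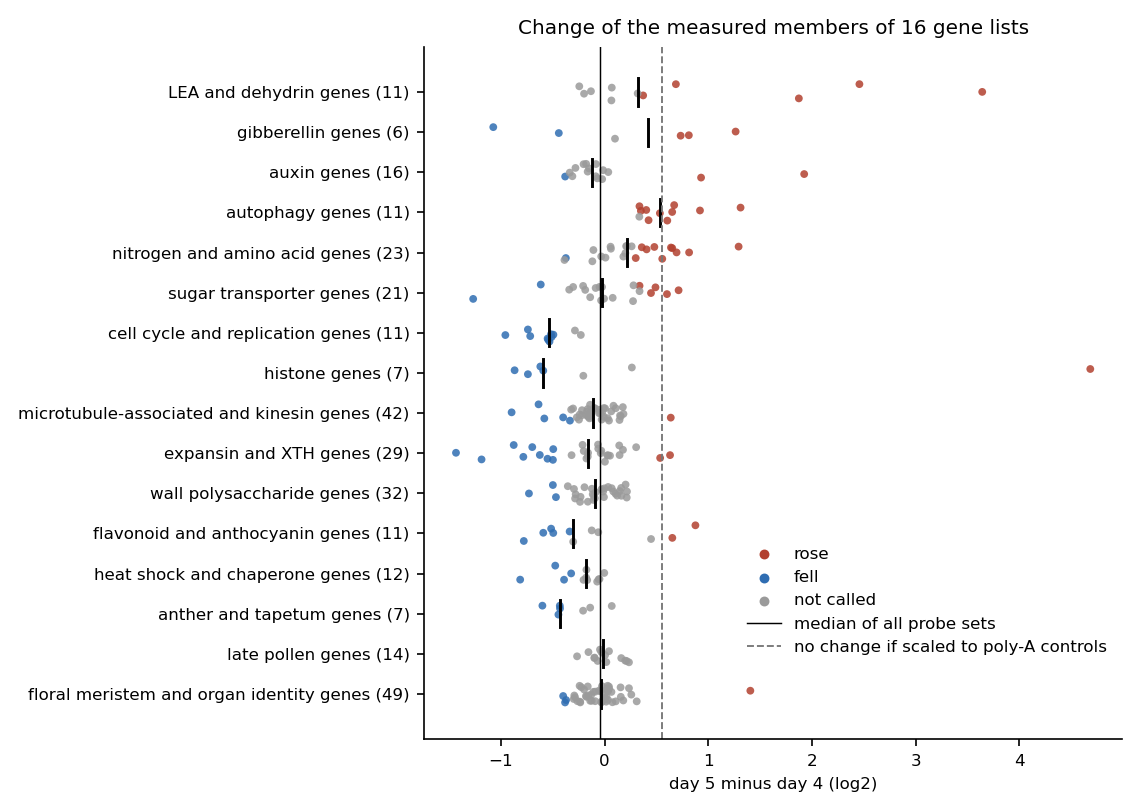
Change from day 4 to day 5 (log2) of the measured members of 16 gene lists, 1 point per gene, with a short bar at each list's median and the number of measured members in brackets. Autophagy genes lie to the right of the line for all probe sets and cell cycle genes to its left, and the dashed line at 0.55 marks the change that would be 0 on the poly-A scale, which most rises of the autophagy list straddle.

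Genes of specialised metabolism moved in both directions, where 9.58% of all named genes rose and 12.8% fell. Of 5 measured glucosinolate genes BCAT4 and GSTU20 fell (40%), the second by 1.24 (SE 0.15, adjusted p = 2.8e-04), from 11.36 and 10.87 to 9.79 and 9.98. AOP1, AOP3 and UGT74B1, further enzymes of that pathway, were not called (-0.16 to 0.06). Of 14 measured glutathione transferases 2 rose and 2 fell, or 14.3% each. GSTU25 rose by 1.37 (SE 0.13), from 5.13 and 4.91 to 6.38 and 6.39, and GSTU16 by 0.65 (SE 0.11), while GSTU20 and GSTU27 fell. Among 52 UDP-glycosyltransferases 6 rose (11.5%) and 5 fell (9.62%), near the shares of all named genes, and UGT76E12 and UGT85A5 rose by 1.06 (SE 0.12) and 1.09 (SE 0.13). That list had 4 called rises and 2 called falls without day 5 replicate 2. Of 11 flavonoid and anthocyanin genes 5 fell (45.5%) and 2 rose (18.2%), with a median of -0.30, and without day 5 replicate 2 the falls were 3. UGT78D1, which adds rhamnose to flavonols, fell by 0.59 (SE 0.10), UGT84A1 by 0.78 (SE 0.13) and BAN, of proanthocyanidin synthesis, by 0.52, whereas DFR, an enzyme of anthocyanin synthesis, rose by 0.88 (SE 0.15), from 5.05 and 5.13 to 5.71 and 6.22. Of 22 beta-glucosidase and myrosinase genes 3 rose (13.6%) and 2 fell (9.09%), near the shares of all named genes. The largest changes were BGLU28 at 1.61 (SE 0.13), BGLU44 at -1.02 (SE 0.13) and BGLU45 at 0.96 (SE 0.13). Among 16 defence peptide and related genes PDF2.5 fell by 0.75 (SE 0.12), LCR68 fell by 0.51 and PDF1.2b rose by 0.42 (adjusted p = 0.0279), shares near those of all named genes. The call of PDF1.2b was lost when day 4 replicate 1 (0.149) or either day 5 array (0.0683 and 0.158) was left out.

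Lists for reproductive development differed among themselves. None of 14 late pollen genes was called, with changes from -0.27 to 0.23 and a median of -0.01. For one of them, SETH5, a second probe set rose by 0.54 (adjusted p = 0.0039), against -0.27 in the one used. Of 49 floral meristem and organ identity genes 1 rose (2.04%) and 3 fell (6.12%), below the 9.58% and 12.8% of all named genes. AGL67 rose by 1.41 (SE 0.16), from 4.03 and 4.18 to 5.22 and 5.80. AGL67 is a MADS-box gene known from seeds, and both of its day 4 values lay near the low end of the array. AGL29, RBE and UFO fell, with changes of -0.37 to -0.40, and none of these calls held without day 5 replicate 1 (adjusted p = 0.137, 0.1 and 0.172). The same was true of the second array of day 5 (0.0711, 0.197 and 0.144). The call was also lost for AGL29 with either day 4 array left out (0.0691 and 0.0645), for RBE without day 4 replicate 1 (0.235) or a day 3 array (0.05), and for UFO without day 4 replicate 2 (0.282) or a day 3 array (0.0738). Of 7 measured anther and tapetum genes 4 fell (57.1%, against 12.8% of all named genes), with a median of -0.43. They were EMS1, a receptor kinase that specifies the tapetum (-0.45), ROXY1 (-0.60), SPL, which starts sporogenous tissue (-0.43), and the tapetum regulator AMS (-0.43, adjusted p = 0.0497). Leaving out day 5 replicate 1 took away each of the 4 calls (adjusted p = 0.0607, 0.107, 0.118 and 0.354). Leaving out day 4 replicate 1 did so for ROXY1 (0.0534), SPL (0.144) and AMS (0.239), day 4 replicate 2 for EMS1 (0.0603), day 5 replicate 2 for EMS1 (0.058) and SPL (0.0925), and a day 3 array for AMS (0.0734). The tapetum gene ATA27 at 0.07 was not called. Of 8 meiosis genes ATMND1 fell by 0.37, and that call was lost when day 4 replicate 1 (adjusted p = 0.0882), day 5 replicate 1 (0.0736) or day 5 replicate 2 (0.123) was left out.

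Of 69 measured genes of the plastid genome, 19 rose and 13 fell, or 27.5% and 18.8%, against 9.58% and 12.8% of all named genes, and the median size of a change was 0.37 against 0.16 to 0.18 on the 5 nuclear chromosomes. Of the 10 measured genes for the NDH complex, which carries electrons around photosystem I, 6 rose and none fell, with a median of 0.70 (0.15 on the poly-A scale, with 3 called rises and 3 called falls). The gene ndhG read 6.59 and 6.01 on day 4 and 8.37 and 9.15 on day 5, a rise of 2.46 (SE 0.24, adjusted p = 7.6e-05). The gene ndhF rose by 2.45 (SE 0.18), from 4.53 and 4.71 to 6.75 and 7.40, and ndhE by 2.19 (SE 0.12), from 6.03 and 5.90 to 8.03 and 8.28. The other rises were ndhK at 0.76, ndhJ at 0.74 and ndhH at 0.66, and all 6 were called whichever array was left out. In contrast, ndhA, ndhI, ndhC and ndhD at 0.36, 0.20, 0.11 and 0.02 were not called, although they belong to the same complex.

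Of 36 genes for photosystems, cytochrome complex, ATP synthase and the large Rubisco subunit 12 rose (33.3%) and 7 fell (19.4%). Over all named genes 9.58% rose and 12.8% fell. The photosystem I gene psaC read 5.63 and 5.51 on day 4 and 7.47 and 7.73 on day 5, a rise of 2.03 (SE 0.13), and the photosystem II gene psbT rose by 2.03 (SE 0.22), to 7.27 and 8.12. The photosystem assembly gene ycf4 rose by 1.04 (SE 0.14). The core antenna gene psbC fell by 0.84 (SE 0.11), from 10.14 and 10.01 to 9.12 and 9.34, and ccsA, of cytochrome assembly, fell by 0.64. These calls held whichever array was left out. The list had 5 called rises without day 4 replicate 2, and 2 called falls without day 4 replicate 1. A list of 7 genes, those of the plastid-encoded RNA polymerase with matK, accD and clpP, had 3 falls (42.9%) and no rise. The polymerase subunit gene rpoC1 fell by 1.49 (SE 0.15, adjusted p = 9.6e-05), from 9.81 and 9.64 to 7.99 and 8.48. The subunit gene rpoC2 fell by 0.59 and the splicing factor gene matK by 0.64. Not called were rpoB at 0.07, rpoA at 0.15, accD and clpP. On day 4 rpoB read 4.53 and 4.50, near the low end of the array, where a fall can hardly show. The ribosomal gene rps2 fell by 0.95 (SE 0.15), from 9.41 and 9.31 to 8.19 and 8.63.

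Of 68 pairs of neighbours among the measured plastid genes, 11 were both called in the same direction and 3 in opposite directions, and how many chance would give was not tested. In the order of the RefSeq table, rps2, rpoC2 and rpoC1 follow each other and all fell, psaC, ndhE and ndhG follow each other and all rose, and so did psbB, psbT and psbN, and ndhJ and ndhK. The call of psbN, at 0.44, was lost without day 4 replicate 2 (adjusted p = 0.2), day 5 replicate 2 (0.315) or a day 3 array (0.0586), and that of psbB without day 4 replicate 2 (0.0506). Against this, atpI rose by 0.48 beside rps2, psaI fell by 0.43 beside ycf4, and psbA rose by 0.48 beside matK. Of these calls, that of atpI was lost without day 4 replicate 2 (0.223), day 5 replicate 2 (0.242) or a day 3 array (0.0554), that of psaI without day 4 replicate 1 (0.121) or either day 5 array (0.136 and 0.0619), and that of psbA without day 5 replicate 2 (0.0566). The probe sets that rose had day 4 levels of 4.62 to 12.24 with a median of 6.30. Those that fell had levels of 7.37 to 12.50 with a median of 10.6, and those not called a median of 10.8. The ranges overlap, but the median of the rises lies below the lowest level among the falls. The part of the level in the direction of change was not tested. For all 19 rises the second replicate of day 5 read above the first, by a median of 0.39, and it did so for 63 of all 69 plastid genes, by a median of 0.20. Without day 5 replicate 2, 12 of the 19 rises and 8 of the 13 falls were called. Without day 5 replicate 1 the numbers were 17 and 6, without day 4 replicate 1 they were 18 and 6, and without day 4 replicate 2 they were 11 and 11. The 25S ribosomal RNA control also read higher on the second replicate of day 5 (13.52 against 13.30), and its part in the plastid values was not tested.

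**Figure D4:**
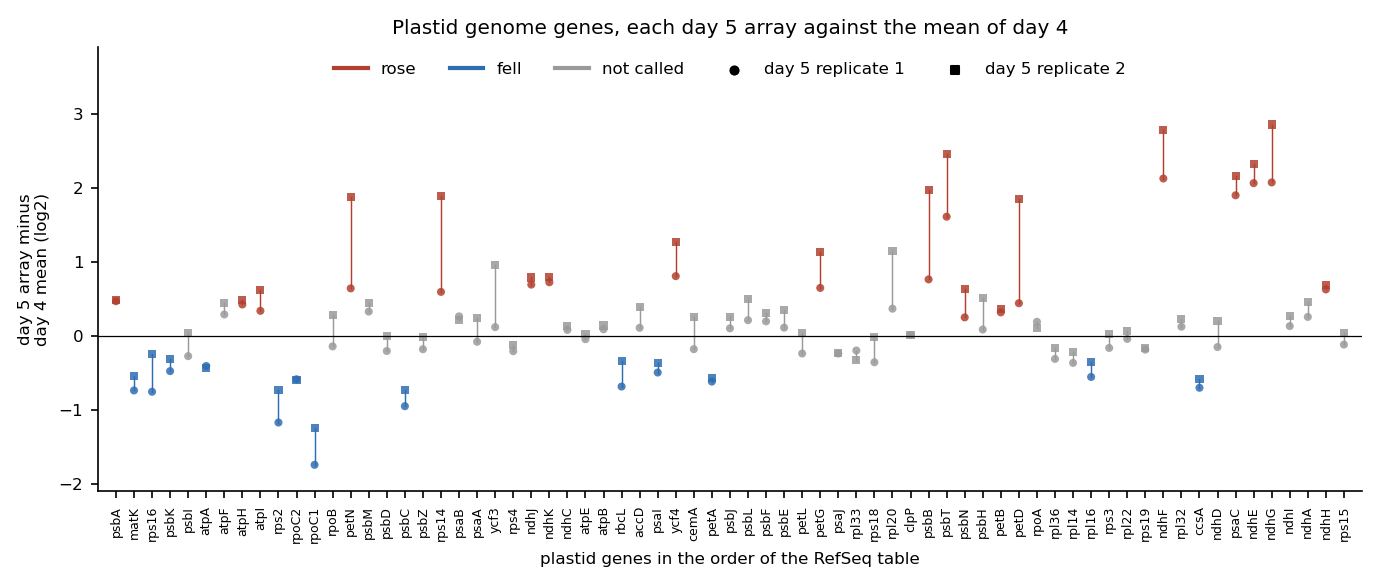
Each day 5 array minus the mean of the 2 day 4 arrays (log2) for 69 plastid genome genes in the order of the RefSeq table, circles for replicate 1 and squares for replicate 2. The squares lie above the circles for 63 genes, and neighbouring genes such as rps2 to rpoC1 or psaC to ndhG lie on the same side of 0.

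Nuclear genes of photosynthesis did not follow the plastid genes as a list. Of 17 measured, 2 rose (11.8%) and 4 fell (23.5%), against 9.58% and 12.8% of all named genes, with a median of -0.08. CHLI2, of chlorophyll synthesis, fell by 0.62 (SE 0.12), from 8.95 and 8.82 to 8.39 and 8.13, and the other falls were -0.32 to -0.50. Without day 5 replicate 1 the list had no called rise and 1 called fall. Of 16 mitochondrial genome genes 4 fell (25%) and 1 rose (6.25%). The falls were led by nad2, which fell by 0.80 (SE 0.18). The 1 that rose was cox1, by 0.36 (-0.19 on the poly-A scale), and without day 4 replicate 1 there was 1 called fall and no called rise. All 12 measured heat shock and chaperone genes had changes below 0, and 4 fell (33.3%). Cpn60beta2, a chloroplast chaperonin, read 11.35 and 11.29 on day 4 and 10.56 and 10.45 on day 5, and fell by 0.82 (SE 0.11). The other 3 falls, of -0.32 to -0.48, lost their calls without day 4 replicate 1, where Cpn60beta2 was the 1 call of the list. The clock and flowering gene GI rose by 1.19 (SE 0.10, adjusted p = 3.0e-05), from 8.12 and 8.07 to 9.23 and 9.33, less than in the first step by 1.29 (adjusted p = 0.00263), while TIC and XCT at -0.02 and 0.04 were not called. The hour of sampling is not given in the labels. Of 24 bZIP genes 2 fell (8.33%, below the 12.8% of all named genes) and none rose. None of 7 WRKY genes fell, while WRKY42 rose by 0.41 (-0.14 on the poly-A scale). Of the bZIP calls none was left without either day 3 array, and that of WRKY42 was lost when day 4 replicate 2 (adjusted p = 0.138), day 5 replicate 1 (0.167) or day 5 replicate 2 (0.0516) was left out.

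The first step, from day 3 to day 4, gave 1125 calls (4.95%) where the second gave 5443 (23.9%), and both use the day 4 arrays. The change of the second step differed from that of the first for 1564 probe sets (6.88%), above it for 794 (3.49%) and below it for 770 (3.39%). Of these, 131 (0.576%) fell in the first step and rose in the second, and 119 (0.523%) rose and then fell. AT3G15450 had the largest turn upward, at 9.60 and 9.16 on day 3, 7.75 and 8.14 on day 4 and 10.90 and 11.29 on day 5. Its rise of 3.15 (SE 0.18) followed a first step of -1.44, and the steps differed by 4.59 (adjusted p = 6.9e-05). AT4G27450 fell by 1.34 and rose by 2.51, AT2G05540 fell by 0.56 and rose by 2.55, and BGLU28 fell by 1.14 and rose by 1.61. For AT3G15450, AT4G27450, AT2G05540 and BGLU28 day 5 ended above day 3. AT4G21870 fell by 1.69 and rose by 0.75, so that its day 5 values of 7.92 and 8.05 stayed below the 9.10 and 8.74 of day 3. Its second step was 0.20 with no call on the poly-A scale.

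The largest turn downward was that of AT3G23450, at 9.38 and 9.63, then 10.10 and 9.89, then 7.87 and 7.85, and it fell by 2.13 (SE 0.12) after a rise of 0.49. AT5G52390 rose by 2.00 and fell by 0.59, AT3G55870 rose by 0.88 and fell by 0.58, AT1G64560 rose by 0.77 and fell by 0.81, and AT1G48100 rose by 0.71 and fell by 0.75. AT1G64560 read 4.92 on both day 5 arrays, close to the 4.98 and 4.94 of day 3. The fall of AT5G52390 lost its call without day 4 replicate 2 (adjusted p = 0.074) or day 5 replicate 2 (0.0803), and that of AT3G55870 without day 4 replicate 2 (0.0573) or day 5 replicate 1 (0.0704). The difference between the steps of AT3G55870 ended without day 4 replicate 2 (adjusted p = 0.0537), and the first-step calls of AT2G05540 and AT3G23450 ended without at least 1 array (adjusted p up to 0.193 and 0.29). Without day 4 replicate 2 the number of probe sets whose steps differed was 471, and without day 3 replicate 1 it was 506.

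**Figure D5:**
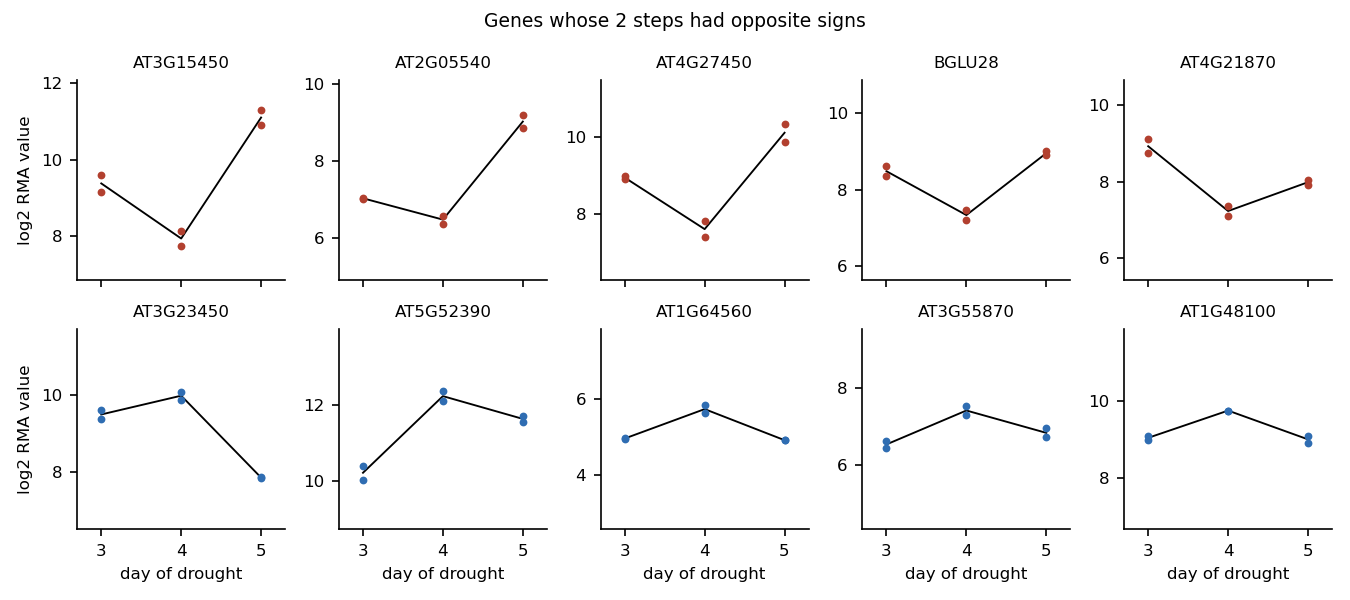
Values on the 6 arrays (log2 RMA value, points) and day means (line) on days 3, 4 and 5 of drought for 10 genes whose 2 steps were both called with opposite signs, each panel spanning the same number of log2 units. The upper row is lowest on day 4 and the lower row highest, and the steepest turn is that of AT3G15450.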

How the data were processed

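Total RNA of unopened flower buds was hybridised, biotin-labelled, to Affymetrix ATH1 arrays, 1 per sample. In the deposited table each probe set has 1 log2 value on each array. The authors computed these values by RMA, and affy is the package listed in the submitters' processing notes, with no version. Array medians lay between 7.41 and 7.46, and the number of arrays limits the precision, with a median SE of 0.11 for the change.

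The day was the only term of a limma model (version 3.58.1, R 4.3.3) over the 6 arrays, moderated by eBayes with no mean-variance trend. Residual degrees of freedom were 3, to which the prior contributed 8.01. Tested were both steps and the second step minus the first. Two-sided p-values were adjusted by Benjamini-Hochberg over 22746 probe sets, and called under 0.05. In simulated data for day 5 against day 4, 200 probe sets were changed and the noise was independent between probe sets. Changes of 0.5 were recovered in 57.5% and of 1 in 100% of cases, with 12 and 17 false calls. The data had 5443 calls, far more than 200, so these figures do not carry over to them.

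Of the tested probe sets 13513 were named with exactly 1 gene, 503 with several and 8730 with none here. The 13513 stand for 13350 genes, the probe set with the highest mean for each, and 13436 of them matched the RefSeq table of TAIR10.1. Gene lists were made by symbol, so genes without a matching symbol or synonym are missing from them. Genes were named by rule: the 20 largest called rises and falls without overlap of the days, from each list with 3 or more measured, at most the 4 members of lowest p, and the 5 largest turns in each direction where both steps were called. Some further list members, and the lists with fewer members, were named after their values were seen. Members, lists and rules were chosen with earlier results of these data known. Alternatives were another prior, 4 other scalings, filters, the replicate block, fewer arrays, fold minimums and averaging over the probe sets of a gene. No sequences were analysed here.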

Additional observations from a re-analysis of the deposited data

Results flagged for a closer look

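Values outside the tested probe sets differed between the 2 days. From day 4 to day 5 the mean of the 24 poly-A control probe sets went up by 0.55 and the 25S ribosomal RNA control by 0.93, while the day 3 arrays (7.02 and 7.16 for the first, 12.30 and 12.30 for the second) lay close to those of day 4.

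For 131 probe sets lowest on day 4 and 119 highest on day 4, both steps were called with opposite signs and differed from each other. The 5 largest named turns in each direction follow. The second step minus the first was 4.59 for AT3G15450, 3.85 for AT4G27450, 3.11 for AT2G05540, 2.76 for BGLU28 and 2.44 for AT4G21870, which were lowest on day 4. It was -2.62 for AT3G23450, -2.59 for AT5G52390, -1.58 for AT1G64560, -1.47 for AT3G55870 and -1.46 for AT1G48100, which were highest on day 4. All 10 differences kept their sign and their call on the poly-A scale. That scale lowers each difference by the same amount, smaller than any of these, so no sign could turn.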

How the results depend on the processing

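Day 5 against day 4 gave 5443 calls, 2395 rises and 3048 falls, and the step difference 1564. Of the other settings run, poly-A scaling moved it to 19570 calls (386 rises, 19184 falls; step difference 15061), limma's treat against a 1.2-fold change to 1256 (725 and 531; 404) and a 2-fold minimum to 362 (276 and 86; 567). A prior that follows the mean level gave 2485 step differences. Leaving out 1 array gave 2506 to 4822 calls, 1249 to 2158 rises, 1257 to 2664 falls and 471 to 962 step differences. Cyclic loess gave 2894 rises and 2371 falls, which moved the share of rises among calls by over 10 percentage points; the cause was not tested. The poly-A scale lowers all day 5 values, so positive changes below 0.55 turned. Among single genes that were called these are SWEET4 (-0.060), COR15A (-0.18), EXPA8 (-0.015), WRKY42 (-0.14), psbN (-0.11), atpI (-0.072), psbA (-0.075), cox1 (-0.19) and PDF1.2b (-0.13). Among those not called they are COR47 (-0.23), SPY (-0.45), ATG8G (-0.22), XCT (-0.51), YUC4 (-0.52), AOP1 (-0.54), AOP3 (-0.49), ATA27 (-0.48), ndhA (-0.19), ndhI (-0.35), ndhC (-0.44), ndhD (-0.53), rpoA (-0.40) and rpoB (-0.48). Other sign changes, all of genes not called, were TIC (0.046) and YUC2 (0.015) with cyclic loess, AOP1 (-0.0021) with arrays centred on their median and SETH5 (0.13) with the mean over probe sets. Leaving out 1 array gave -0.041 to 0.0088 for TIC, -0.052 to 0.14 for XCT, -0.12 to 0.067 for YUC2, -0.099 to 0.17 for YUC4, -0.41 to 0.082 for UGT74B1, -0.18 to 0.20 for AOP1, -0.014 to 0.13 for AOP3, -0.15 to 0.20 for ndhD, -0.14 to 0.28 for rpoB and -0.0050 to 0.14 for ATA27. The replicate number as a block gave 5614 calls (2484 and 3130) and 1795 step differences. Deviations of same-numbered arrays correlated at 0.06, -0.00 and 0.10 between the days. With 2 arrays a day this cannot show whether same-numbered samples shared a block, and the labels name none.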
